A study of Mus musculus with 15 samples.

Results

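The comparison described here is between organoids given the mouse-like bile acid pool with a 10% share of 12α-hydroxylated bile acids (M10) and organoids given the human-like pool with the same share (H10). It rests on 6 of the 15 libraries of the series, chosen by their titles: M10 a, b and c and H10 a, b and c. All libraries came from primary ileal organoids of C57BL/6 mice at passage 2, grown from crypts in Matrigel and kept for 24 h in DMEM with 0.2% BSA and either a pool or vehicle. The other groups, also of 3 libraries each, were vehicle and the mouse-like and human-like pools with a 90% share (M90 and H90). H10 and M10 therefore share strain, culture, medium, duration and the labelled 12α-hydroxylated share, and differ in the species that the pool models. The labels give neither the bile acids in each pool nor their concentration, so every difference below is between whole mixtures. They do not say whether a, b and c came from separate animals or cultures, so p-values measure only the spread between these libraries, which may be technical.

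Bile acids are made from cholesterol in the liver and are taken up again by enterocytes of the ileum. Inside the enterocyte they bind nuclear receptors, chiefly the farnesoid X receptor (FXR), which turns on the hormone Fgf15 and the basolateral exporter and restrains uptake. A hydroxyl group at carbon 12 separates the cholic acid branch from the chenodeoxycholic acid branch, and mice convert much of the latter to muricholic acids, which humans do not make in quantity. Ileal organoids hold crypt-like dividing cells and villus-like absorptive and secretory cells, but no liver, stroma or immune cells are expected in an epithelial culture.

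Total counts were 18722586, 19378268 and 25845919 in H10 a to c and 28989526, 26085428 and 21585731 in M10 a to c. The labelled tissue showed in the markers: summed enterocyte markers reached 24727 to 25275 CPM (a gene's counts scaled to the plain library total) in H10 and 33780.2 to 35324 CPM in M10, while summed immune markers stayed at 7.02 to 9.48 CPM and endothelial markers at 1.86 to 4.10 CPM over both groups. Of 15 immune markers in the files, 6 had no count in either group (among them Cd3g, Cd8a, H2-Aa, Gzma and Gzmb).

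Transcripts that an epithelial culture should lack divided the libraries in the same way as the 2 groups. Mup20, a urinary protein made in liver, was at 23.0 to 35.9 CPM in H10 and at 0.417 to 0.498 CPM in M10. Alb, serum albumin, was at 94.1 to 137 CPM in H10 and 32.5 to 41.8 CPM in M10, and Col1a1, a collagen of mesenchymal cells, at 0 to 0.107 CPM in H10 and 5.65 to 6.13 CPM in M10. Summed over 35 liver transcripts the level was 898 to 1091 CPM in H10 and 621 to 710.3 CPM in M10, although some of these, such as Cps1, are also made by the intestinal epithelium. The summed level of 14 mesenchymal markers was 13.0 to 17.5 CPM in H10 and 18.9 to 21.5 CPM in M10, with Col6a1, Col6a2 and Thy1 at 0 counts in both. Vehicle and H90 a resembled H10 in Mup20, whereas H90 b and c and M90 resembled M10. Pool and library set therefore cannot be told apart from the 6 libraries alone. A pair of measurements bears on this. The first is a fit with a term for library set, which only the 3 H90 libraries can estimate. The second is M90 minus H90 without H90 a, where all libraries lie in 1 set by Mup20. The term amounts to H90 a against H90 b and c and carries whatever else set H90 a apart. Rn45s, a ribosomal RNA precursor, was at 14142.5 CPM in H90 a and at 3116.3 and 3215 CPM in H90 b and c. With the term its M10 minus H10 log2 difference was 2.19 (edgeR adjusted p = 1.38e-05). Yet H10 was at 1863 to 2128 CPM and M10 at 1739 to 1911 CPM. The number of genes at exactly 1 count divided the libraries in another way. It was 213 to 246 in M10 and 221 to 297 in H90. It was 450 to 570 in H10, 479 to 552 in vehicle and 466 to 603 in M90. M90 minus H90 without H90 a therefore crosses this division, with the sides reversed from M10 minus H10.

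**Figure D1:**
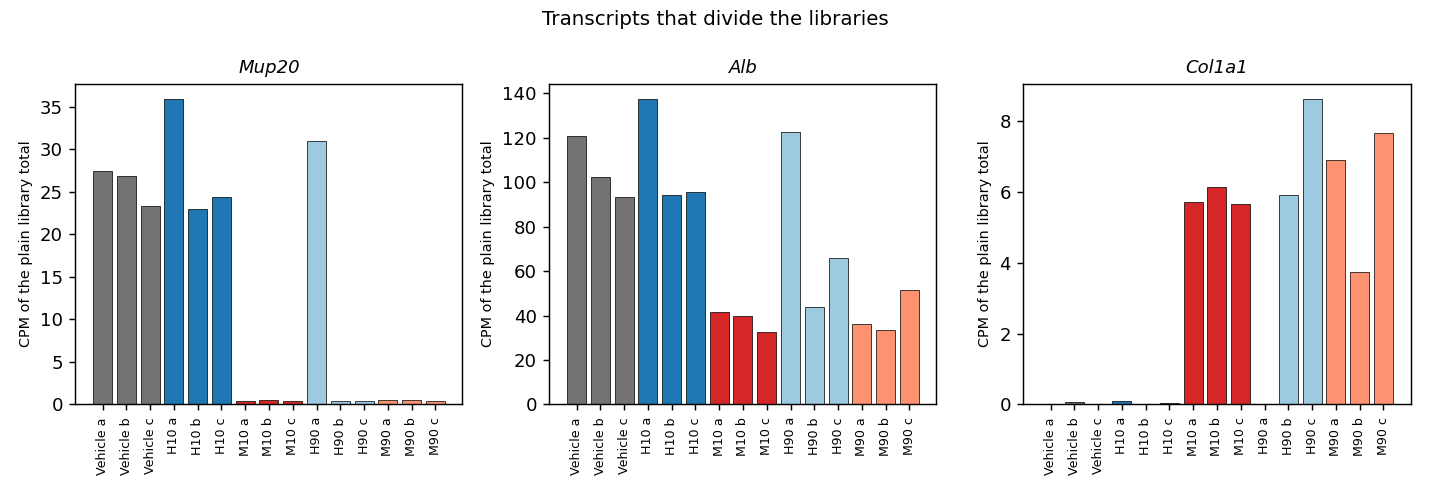
Bars give the CPM of Mup20, Alb and Col1a1 in each of the 15 libraries, as a share of the plain library total, coloured by group. Mup20 was above 20 CPM in vehicle, H10 and H90 a and below 1 CPM in the other libraries, and Col1a1 was above 3 CPM only where Mup20 was low.

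The organoids in M10 had far less cell cycle RNA than those in H10, and more RNA for lipid absorption, brush border, mucus, epithelial repair and a few glucocorticoid-inducible genes. Of 13159 tested genes, 4779 passed an adjusted p of 0.05 (36.3%; edgeR quasi-likelihood F test, Benjamini-Hochberg adjustment over all tested genes), 2394 higher in M10 (18.2%) and 2385 lower (18.1%). At 2-fold or more, 756 genes passed (5.75%), 211 of them higher (1.60%) and 545 lower (4.14%). The larger changes were thus more often decreases, with the median of all tested genes at -0.02 on the log2 scale. The share of calls that were higher was 50.1%, but 35.5% with upper-quartile scaling and 25.1% with scaling to library size only, which moved the median of all genes to -0.15. Adding the library set term left 2025 genes past the threshold, 1046 higher and 979 lower. Of the 4779 calls, 1870 (39.1%) stayed past the threshold in the same direction. The list counts below, with or without the set term, are to be read beside these numbers over all tested genes. On the first principal component of all 15 libraries, which held 55.2% of the variance, vehicle lay at -63.9 to -58.9, H10 at 11.4 to 14.1 and M10 at 66.2 to 68.5.

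Genes of mitosis showed the largest coordinated difference. All 40 tested members of the cell cycle and mitosis list were lower in M10, 40 of 40 past the threshold against 18.1% of all tested genes, with a median log2 difference of -2.58. In the fit with the library set term 37 of the 40 passed, with a median of -2.40. Bulk RNA cannot tell fewer dividing cells from less of this RNA in each cell.

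Bub1, a kinase of the spindle checkpoint, was at 5.93, 4.99 and 5.25 CPM in H10 a to c and at 0.153, 0.214 and 0.611 CPM in M10 a to c. The groups did not overlap, and every M10 library was far below the lowest H10 library. The log2 difference was -4.11 ± 0.322 (SE, 3 libraries per group; edgeR adjusted p = 2.5e-12). Aurka, the centrosomal kinase of spindle assembly, was at 13.0, 12.8 and 13.7 CPM in H10 and 1.15, 1.03 and 1.58 CPM in M10, again with no overlap. Its log2 difference was -3.41 ± 0.164 (edgeR adjusted p = 9.58e-19). Top2a, the topoisomerase that untangles replicated chromosomes, fell from 42.2, 34.2 and 36.5 CPM to 6.36, 6.79 and 7.33 CPM, a log2 difference of -2.47 ± 0.0968 (edgeR adjusted p = 6.35e-21). Cdc20, the activator of the anaphase-promoting complex, fell from 20.8, 21.2 and 18.3 CPM to 2.95, 3.25 and 2.44 CPM (log2 -2.79, edgeR adjusted p = 1.19e-18). In all 4 genes the 3 M10 libraries were low together. Vehicle stood higher than either pool for each of them, with means of 33.6 CPM for Bub1, 52.4 for Aurka, 252 for Top2a and 97.0 for Cdc20.

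A further 7 genes among the 12 largest decreases belonged to the same process. Nuf2 and Ndc80, subunits of the kinetochore complex that grips microtubules, had log2 differences of -4.26 and -3.96. Cenpf and Kntc1, also of the kinetochore, had -3.54 and -3.34. Pbk, a mitotic kinase, had -4.18, Ccnf, an F-box cyclin, -3.49, and Kif2c, a microtubule-depolymerising kinesin, -3.34. The CPM ranges of M10 and H10 did not overlap for any of them, as was so for 47.5% of all tested genes (23.6% with M10 higher and 23.9% with M10 lower), and each passed with the library set term too. Racgap1, a cytokinesis regulator among the 4 list members with the smallest adjusted p, fell by 3.02.

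Promoters of 4 of these genes are shown because promoters of G2/M genes are known for CCAAT boxes and the cell cycle homology region TTTGAA. Each line gives 150 bases, from 160 to 11 bases before the RefSeq start (GRCm38.p6), 5′ to 3′ on the gene's strand. Capitals mark CCAAT or TTTGAA on either strand, so that ATTGG and TTCAAA are the same motifs read on the other strand.
Top2a, chr11:99024200-99024349, minus strand: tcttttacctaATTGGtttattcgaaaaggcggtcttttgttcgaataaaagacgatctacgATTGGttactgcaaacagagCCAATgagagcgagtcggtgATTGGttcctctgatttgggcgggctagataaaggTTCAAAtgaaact
Cdc20, chr4:118437354-118437503, minus strand: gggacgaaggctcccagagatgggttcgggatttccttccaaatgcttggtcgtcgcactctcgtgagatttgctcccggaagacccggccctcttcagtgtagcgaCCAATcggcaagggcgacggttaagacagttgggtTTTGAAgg
Bub1, chr2:127831870-127832019, minus strand: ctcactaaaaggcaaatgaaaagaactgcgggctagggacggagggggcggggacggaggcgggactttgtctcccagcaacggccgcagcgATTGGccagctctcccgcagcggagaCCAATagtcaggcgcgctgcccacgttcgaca
Aurka, chr2:172370581-172370730, minus strand: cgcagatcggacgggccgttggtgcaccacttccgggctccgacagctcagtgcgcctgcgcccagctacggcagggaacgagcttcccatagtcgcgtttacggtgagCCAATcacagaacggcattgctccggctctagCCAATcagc
Over the 250 bases before the start, CCAAT was present on either strand in 23 of the 33 list members with a RefSeq promoter (69.7%) and in 40.8% of the 9799 tested genes with one. TTTGAA was present in 11 of 33 (33.3%) and in 12.6%. The E2F motif GCGGGAA was in 0 of the 33, but in 11 of 41 promoters of the DNA replication list (26.8%) and in 7.97% of tested genes. These are matches of letters in a window and not measured binding.

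**Figure D2:**
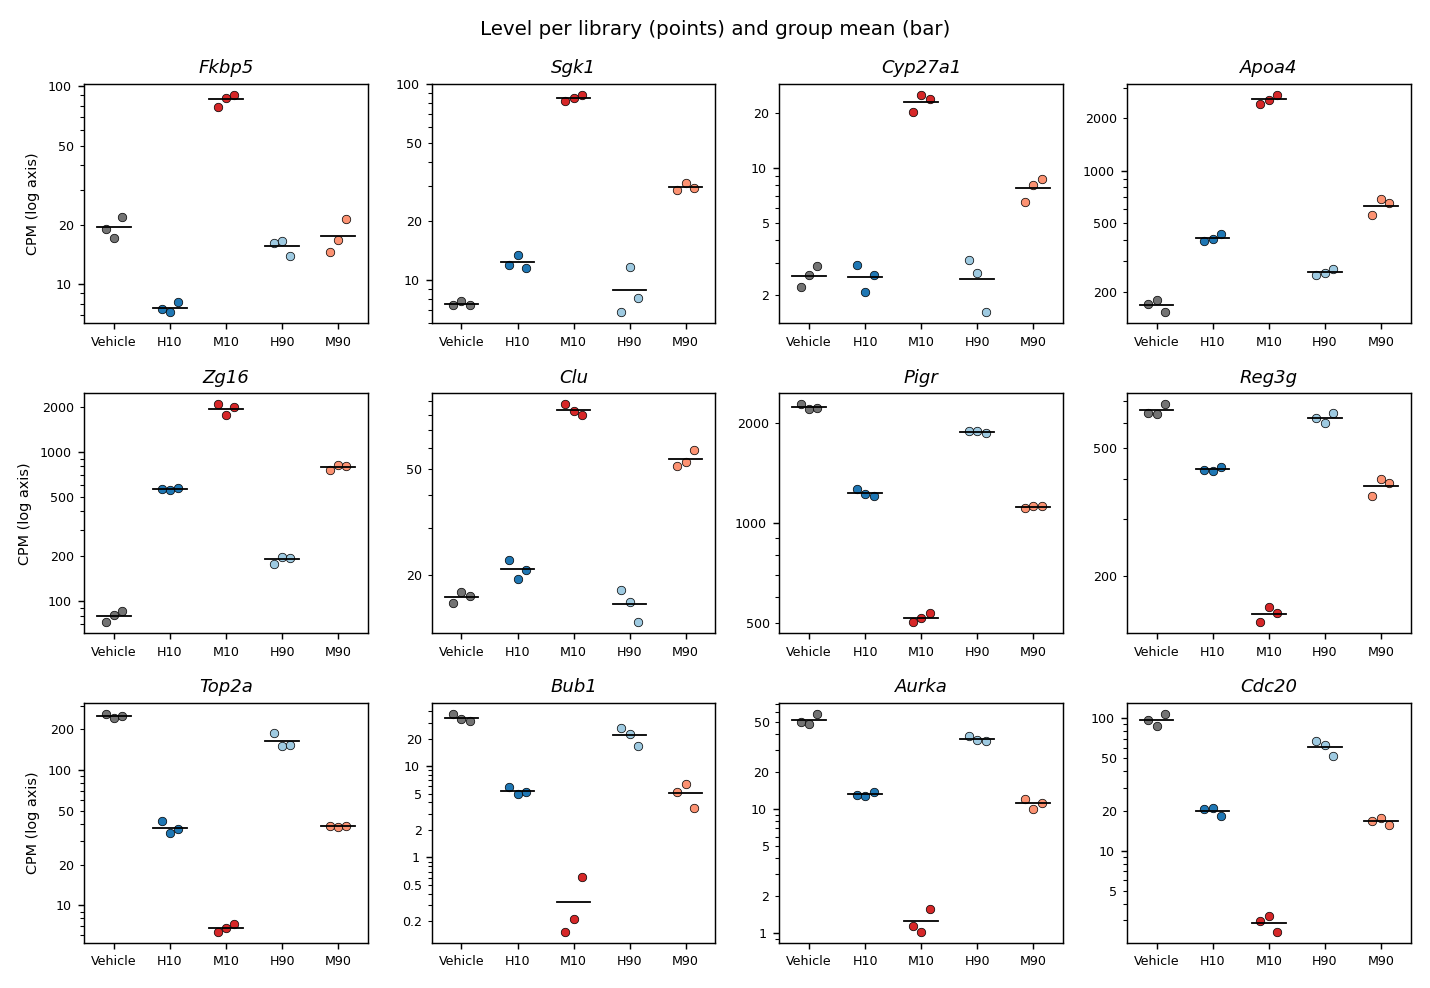
Points give the TMM-scaled CPM of 12 genes in each library on a log axis, by group, and bars give the mean of 3 libraries. M10 lies apart from H10 in every panel: above it in the 6 genes from Fkbp5 to Clu, and below it in the 6 genes from Pigr to Cdc20.

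DNA replication genes were lower as well, but less uniformly. Of 50 tested, 41 were lower, 0 higher and the median log2 difference was -1.17. Mcm5, a subunit of the replicative helicase, was at 9.54, 10.6 and 8.51 CPM in H10 and 1.72, 1.15 and 0.560 CPM in M10, with no overlap (log2 -2.99, edgeR adjusted p = 7.03e-14). The transcription factors E2f8 and E2f2 had log2 differences of -2.55 and -1.25 and the histone chaperone Asf1b -3.05. Pcna, the sliding clamp of DNA polymerase, did not pass: it was at 87.1, 90.0 and 98.9 CPM in H10 and 86.0, 82.6 and 84.7 CPM in M10 (log2 -0.13, edgeR adjusted p = 0.102), though it passed with upper-quartile scaling or library size only. The set term left 30 of the 50 past the threshold.

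Homologous recombination and Fanconi genes, which mend and link replicating chromosomes, had 17 of 26 members lower, 0 higher and a median of -1.66. Several reached the counting limit in M10. Exo1, an exonuclease of DNA repair, had 77 counts in the H10 libraries together and 0 in M10, so its level was at least 9.09-fold lower in M10 (floor of 3 counts per library). Fanci, a Fanconi protein named here after its values were seen, had 74 and 0 counts, at least 8.82-fold lower. Esco2, the acetyltransferase that establishes sister chromatid cohesion, had 218 and 3 counts, a ratio of 79.4 (95% interval 26.8 to 388, for counting error only). Rad51ap1 had 109 and 2 counts (ratio 59.6, interval 16.1 to 498) and Rad54l 103 and 3 (ratio 37.5, interval 12.5 to 185), both of recombination repair. The set term left 11 of the 26.

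Ribosome biogenesis factors fell in smaller steps: 37 of 38 were lower, 0 higher, with a median of -0.59. Npm1, the nucleolar chaperone, was at 322, 314 and 324 CPM in H10 and 204, 177 and 213 CPM in M10. All 3 M10 libraries were lower, and the log2 difference was -0.69 ± 0.0496 (edgeR adjusted p = 5.84e-14). Utp20, Nhp2 and Nolc1, which process and modify ribosomal RNA, had log2 differences of -1.21, -0.95 and -0.77. The set term left 18 of 38. Among D cyclins, Ccnd1 fell by 1.60. The list of CDK inhibitors, D cyclins and p53 targets had 4 of 28 higher, 2 without H10 a, and 4 lower. That was 28.6% called, below the 36.3% of all tested genes, and with the set term 0 were higher and 2 lower.

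Crypt stem cell and Wnt target genes were divided. Of 25 tested, 7 were lower and 2 higher, against 18.1% and 18.2% of all tested genes. The total of 36% called was near the 36.3% of all tested genes, but leaned to lower. Axin2, a feedback target of Wnt signalling, was at 6.36, 6.19 and 8.27 CPM in H10 and 2.26, 2.52 and 1.78 CPM in M10 (log2 -1.66 ± 0.167, edgeR adjusted p = 2.96e-10). Smoc2, a matrix protein of stem cells, went the other way, from 42.7, 33.4 and 38.4 CPM to 55.2, 55.1 and 51.2 CPM (log2 0.50, edgeR adjusted p = 1.29e-05). Neither pair of ranges overlapped. Hopx and Ephb2 had log2 differences of -0.57 and -0.47. Lgr5, the receptor that marks crypt base stem cells, did not pass at 2.10, 3.38 and 3.41 CPM in H10 and 1.95, 1.45 and 2.60 CPM in M10 (edgeR adjusted p = 0.108), though it passed without H10 a or without M10 c, nor did Ascl2 (edgeR adjusted p = 0.689). Under the set term Smoc2 (edgeR adjusted p = 0.0588) and Hopx (0.144) did not pass, and 2 list members were called lower and 0 higher.

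Genes of the absorptive cell were higher in M10. Enterocyte markers had 9 of 12 higher and 0 lower (median log2 0.52), the brush border list 24 of 29 higher and 0 lower (median 0.44), and lipid absorption 23 of 27 higher and 1 lower (median 0.36), against 18.2% of all tested genes. Under the set term the counts higher were 8, 19 and 13.

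The apolipoproteins Apoc2 and Apoa4 had the largest increases of these lists. Apoa4, which coats chylomicrons, was at 393, 406 and 433 CPM in H10 and 2409.7, 2551 and 2739.8 CPM in M10. The lowest M10 library was far above the highest H10 library, and the log2 difference was 2.64 ± 0.0768 (edgeR adjusted p = 2.83e-14). Apoc2, the cofactor of lipoprotein lipase, was at 22.1, 22.8 and 25.5 CPM in H10 and 141, 161 and 146 CPM in M10 (log2 2.66, edgeR adjusted p = 1.4e-23). Apoa1, the main protein of HDL, rose by 1.72 on the log2 scale. Cidec, a lipid droplet protein, was at 74.9, 74.6 and 73.7 CPM against 196, 197 and 189 CPM (log2 1.38), and Acsl5, an acyl-CoA synthetase, rose by 0.68. Rbp2, the retinol-binding protein of enterocytes, rose by 1.70. Groups did not overlap for any of these 6 genes, and all 6 passed with the library set term.

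Among brush border genes, Ezr, ezrin of the microvilli, was at 1625, 1609.6 and 1619.9 CPM in H10 and 2884, 2896 and 2659 CPM in M10 (log2 0.80 ± 0.0426, edgeR adjusted p = 2e-17). Krt20, a keratin of mature enterocytes, and Pls1, an actin bundler, rose by 0.55 and 0.66. Among sugar, amino acid and peptide transporters 17 of 29 were higher and 4 lower, and 11 and 4 with the library set term. Slc15a1, the peptide transporter, was at 88.5, 83.2 and 80.0 CPM in H10 and 242, 245 and 232 CPM in M10 (log2 1.52), with every M10 library higher. Slc6a19, a neutral amino acid transporter, rose by 1.49, and Slc3a1 and Slc7a7, parts of cationic amino acid transport, rose by 0.58 and 0.62. Ada and Apobec1, both of the villus tip list, in which 11 of 15 were higher and 1 lower, had log2 differences of 1.80 and 0.78.

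PPAR alpha targets and fatty acid oxidation genes had 21 of 40 higher and 4 lower (median 0.21), the latter 2 without H10 b, M10 a or M10 b. With the library set term 13 were higher and 1 lower. Creb3l3, a liver and gut transcription factor of lipid metabolism, was at 281, 304 and 308 CPM in H10 and 582, 613 and 637 CPM in M10 (log2 1.04 ± 0.0527, edgeR adjusted p = 6.5e-18). Acacb, an acetyl-CoA carboxylase, rose by 0.95 and Hsd17b4, an enzyme of peroxisomal oxidation, by 0.41. The same 40 genes had 38 higher in M90 minus H90, with a median of 0.65, and the difference between the 2 contrasts passed for 30 of them.

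**Figure D3:**
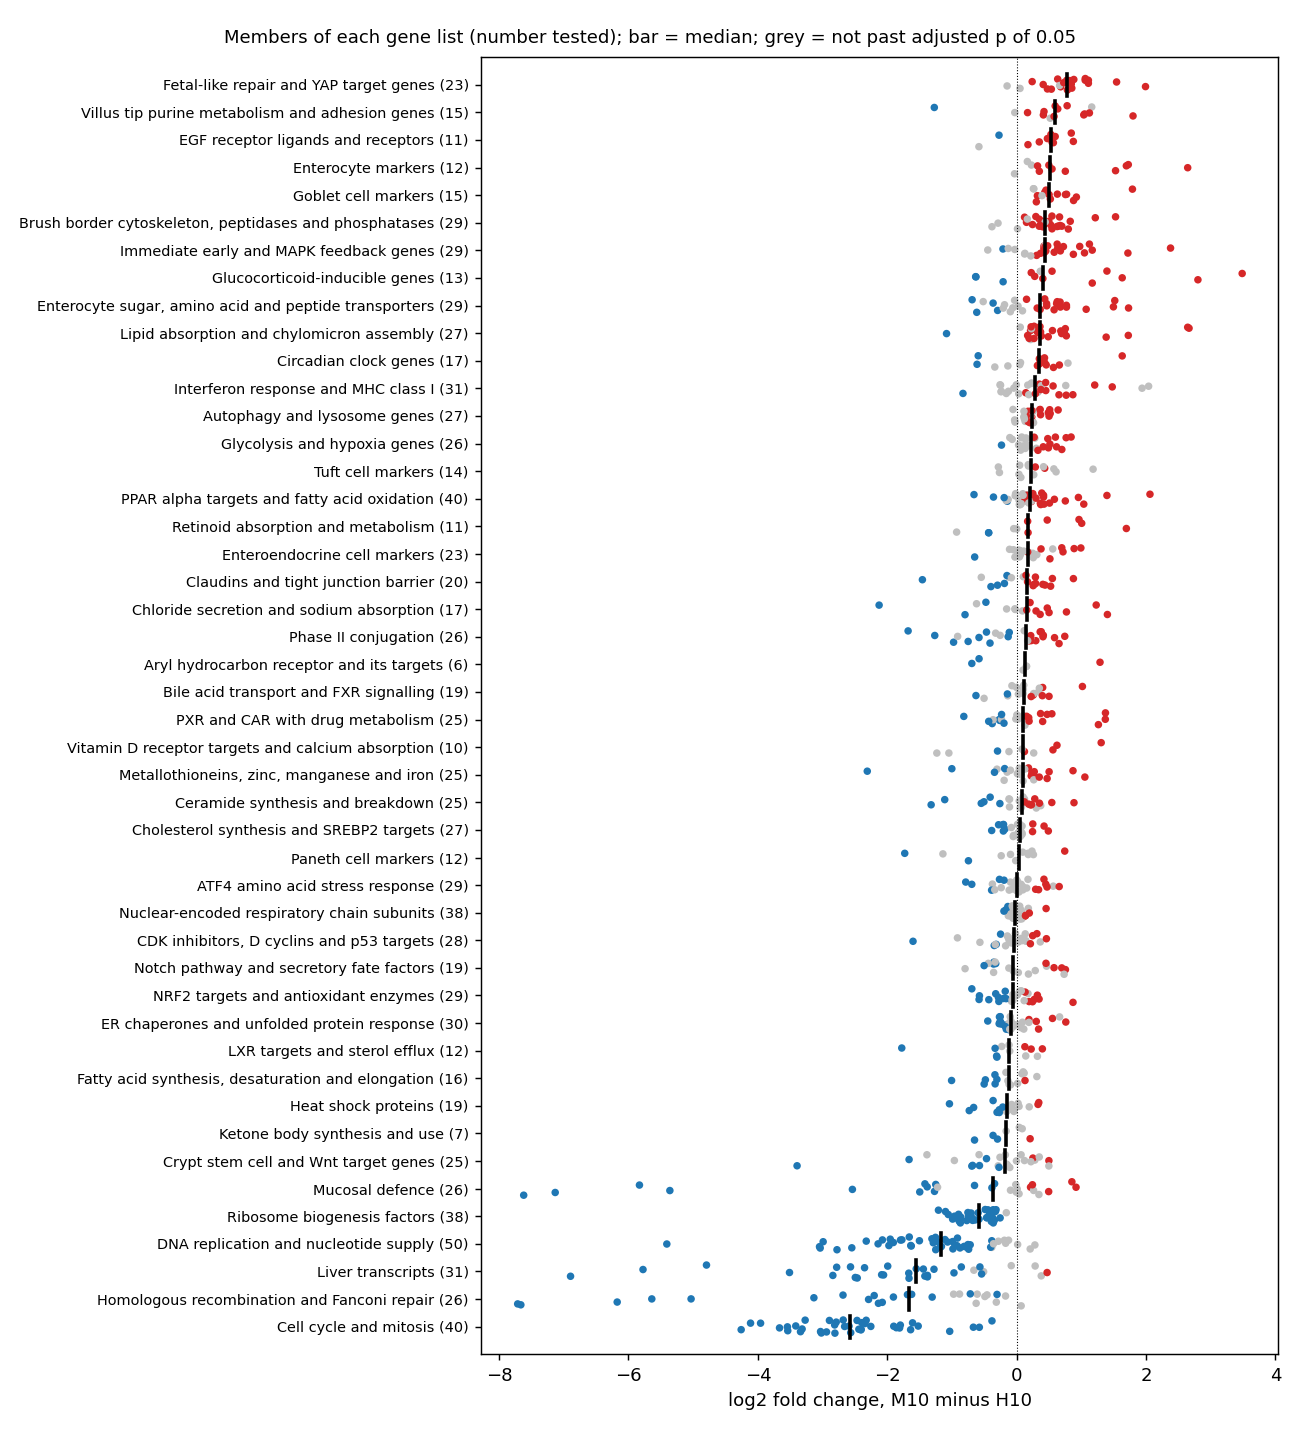
Each point is the log2 fold change of a tested list member, M10 minus H10, coloured where it passed an adjusted p of 0.05 and grey where it did not, and the bar is the list median. Cell cycle, recombination, replication and ribosome biogenesis lists lie to the left together with liver transcripts, and repair, enterocyte, goblet and brush border lists lie to the right.

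Among secretory cells, goblet genes differed most often. Of 15 goblet markers 12 were higher, 0 lower (median log2 0.50), and with the library set term 9 were higher. Zg16, a mucus lectin, was at 561, 553 and 576 CPM in H10 and 2076, 1761 and 2004 CPM in M10 (log2 1.79 ± 0.0574, edgeR adjusted p = 1.25e-19). Fcgbp and Tff3, which are secreted with mucin, rose by 0.88 and 0.92, and Guca2a, guanylin, by 0.50. All M10 libraries lay above all H10 libraries for these 4 genes. Atoh1, the transcription factor of secretory fate, rose by 0.75, while its list of Notch and fate genes had 4 of 19 higher and 4 lower, near the 18.2% and 18.1% of all tested genes. Of these lower calls 1 to 2 were left without H10 a, H10 c, M10 a or M10 c, and the set term left 1 higher and 1 lower.

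Other secretory types moved less. Enteroendocrine markers had 7 of 23 higher and 1 lower (34.8% called, against 36.3% of all tested genes). Sct, secretin, was at 45.2, 45.6 and 47.4 CPM in H10 and 94.1, 93.7 and 67.6 CPM in M10 (log2 0.89, edgeR adjusted p = 2.95e-10), with the groups apart. Pyy rose by 0.99, Tph1, of serotonin synthesis, by 0.72 and Neurod1 by 0.70, but these 3 did not pass with the library set term (edgeR adjusted p = 0.194, 0.164 and 0.358), where 1 marker of the list did. Gcg, the glucagon precursor, did not pass at 1016, 1046 and 1076 CPM against 1107, 1134 and 1022 CPM (edgeR adjusted p = 0.425). Of 14 tuft markers 2 passed (14.3%, against 36.3% of all tested genes), Cd24a (log2 0.29) and Trpm5 (0.43), and Dclk1 did not (edgeR adjusted p = 0.141). Of 12 Paneth markers 1 was higher and 2 lower (25% called, against 36.3% of all tested genes). Defa17 fell by 0.75 and Defa24 rose by 0.74, neither past the threshold under the set term (edgeR adjusted p = 0.163 and 0.675). Defa17 also missed it without M10 a (0.0586) or M10 b (0.0503), and Defa24 without any of H10 a, H10 b, H10 c, M10 a or M10 b (0.0571 to 0.199, edgeR adjusted p). Lyz1, lysozyme, did not pass (edgeR adjusted p = 0.184).

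Genes of epithelial repair and growth factor signalling were higher. The fetal-like repair and YAP target list had 20 of 23 higher and 0 lower (median log2 0.78), and 14 passed with the library set term. Its members Ctgf, Ankrd1, Spp1 and Gja1 were removed as low genes and not tested. Clu, clusterin, a marker of revival stem cells, was at 22.8, 19.3 and 20.8 CPM in H10 and 87.6, 82.6 and 79.9 CPM in M10 (log2 1.99 ± 0.0955, edgeR adjusted p = 9e-19). The groups were far apart, and vehicle was at 16.6 CPM on the mean. Plaur, the urokinase receptor, rose by 1.11. Of 11 EGF receptor ligands and receptors 9 were higher and 1 lower: Areg was at 299, 287 and 294 CPM against 566, 532 and 483 CPM (log2 0.84), Hbegf rose by 0.88, Ereg by 0.47 and the feedback inhibitor Errfi1 by 0.55. Immediate early and MAPK feedback genes had 21 of 29 higher and 1 lower, among them Zfp36 (log2 0.63), Klf6 (0.58), Dusp5 (0.97) and Maff (0.88), and 10 passed with the library set term. Fos rose by 1.12. Fosb, at 0.593, 0.936 and 1.88 CPM in H10 and 6.47, 7.09 and 4.58 CPM in M10, did not pass with the library set term.

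A few genes that respond to glucocorticoids or stress hormones stood out by size. Fkbp5, an immunophilin of the glucocorticoid receptor complex (17:28399094-28517527, protein-coding, minus strand, GRCm38 with GENCODE vM21), was at 7.49, 7.23 and 8.19 CPM in H10 and 78.9, 87.8 and 91.0 CPM in M10. Its log2 difference of 3.49 ± 0.129 (11.2-fold, edgeR adjusted p = 5.38e-22) was the largest increase under the rule for named genes. Vehicle lay between the 2 pools at 19.4 CPM, so that Fkbp5 rose by 2.15 in M10 minus vehicle and fell by 1.34 in H10 minus vehicle, 2 contrasts that share the vehicle libraries. H90 and M90 were at 15.5 and 17.6 CPM. Sgk1, a kinase that regulates sodium transport, was at 11.9, 13.4 and 11.4 CPM in H10 and 82.2, 85.2 and 88.4 CPM in M10 (log2 2.80 ± 0.121, edgeR adjusted p = 6.67e-20). Per1, a clock repressor with a glucocorticoid-responsive promoter, was at 25.9, 22.5 and 23.5 CPM against 69.5, 79.3 and 73.8 CPM (log2 1.63). For these 3 genes no M10 library overlapped an H10 library, and all 3 passed with the library set term, Fkbp5 at a log2 difference of 3.56. The list of glucocorticoid-inducible genes also holds Nr5a2, a nuclear receptor of intestinal steroid synthesis. The list had 9 of 13 higher and 3 lower, and Nr5a2, among the 3 lower, fell by 0.63. With the set term 5 were higher and 1 lower.

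The Sgk1 promoter is shown because it alone among the 9799 tested genes with a RefSeq promoter held the full palindrome of the consensus glucocorticoid response element, on either strand, in the 250 bases before a start (0.0102%). It was at the fifth of 6 RefSeq starts, 189 bases before it, and capitals mark it. The line gives 160 bases from 250 to 91 bases before that start, on the plus strand of GRCm38.p6.
Sgk1, chr10:21993640-21993799, plus strand: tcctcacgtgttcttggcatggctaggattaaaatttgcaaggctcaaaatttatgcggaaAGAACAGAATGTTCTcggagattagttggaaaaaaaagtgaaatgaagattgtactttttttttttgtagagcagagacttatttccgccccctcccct
The match says only that these letters lie in the window.

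Clock genes had 10 of 17 higher and 2 lower, against 18.2% and 18.1% of all tested genes, and 6 and 0 with the set term. Besides Per1, the repressors Nr1d1 and Nr1d2 rose by 0.66 and 0.43 and the output factor Dbp by 0.57, of which Dbp did not pass with the library set term (edgeR adjusted p = 0.186).

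Of the other genes with the largest increases, Cyp27a1, the sterol 27-hydroxylase of the alternative bile acid pathway, was at 2.91, 2.08 and 2.59 CPM in H10 and 20.2, 25.2 and 23.7 CPM in M10 (log2 3.19 ± 0.217, 9.10-fold, edgeR adjusted p = 1.67e-14). H10 was level with vehicle (2.55 CPM), and M10 stood above both. Psca, a GPI-anchored surface protein, was at 4.04, 3.54 and 4.67 CPM against 37.4, 40.0 and 28.7 CPM (log2 3.11). Clca6, a chloride channel accessory protein, rose by 2.16, the antiviral enzyme Oas3 by 2.09, and Gml by 3.06 from levels under 1 CPM. Vwa1, a matrix protein, and Rrad, a small GTPase, rose by 2.37 and 2.06, but neither passed with the library set term (edgeR adjusted p = 0.0893 and 0.507), and Rrad did not pass without M10 a (0.0561).

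Mucosal defence genes were lower more often than higher, 13 against 5 of 26, the latter 3 without H10 b or M10 b (median log2 -0.36). With the library set term 7 were lower and 3 higher. Pigr, the receptor that carries antibody across the epithelium, was at 1272, 1225 and 1211 CPM in H10 and 503, 518 and 537 CPM in M10 (log2 -1.25 ± 0.0384, edgeR adjusted p = 3.75e-24). Reg3g, an antibacterial lectin, was at 429, 425 and 436 CPM against 144, 159.6 and 154 CPM (log2 -1.50), and Reg3a fell by 1.27. No M10 library reached an H10 library for these 3 genes. Il18, a cytokine of epithelial cells, rose by 0.92. Saa1 and Saa2, serum amyloid proteins, showed the 2 largest decreases under the rule, Saa2 with 599 counts in H10 and 3 in M10 (ratio 218, interval 74.3 to 1060, for counting error only). Both were high where Mup20 was high within these 6 libraries, with a log2 difference of -1.01 for Saa2 and -1.54 for Saa1 in the fit with the library set term (edgeR adjusted p = 0.674 and 0.215), and pool and set cannot be told apart for them. Rbp7, a cellular retinoid-binding protein, was the other member of the 12 largest decreases and had a log2 difference of -3.37, and of -3.44 in that fit. Interferon and MHC class I genes had 12 of 31 higher and 1 lower, and 6 and 1 with the set term. That was 41.9% called without the term, against 36.3% of all tested genes (18.2% higher and 18.1% lower). H2-Q2, H2-K1 and Irf7 rose by 0.65, 0.45 and 0.87, and Irf8 fell by 0.83.

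Of the targets of FXR, the nuclear bile acid receptor, Fgf15 and Slc51a rose at this share, while Slc51b, Fabp6 and Nr0b2 did not pass the test. Fgf15, the ileal hormone that represses bile acid synthesis in the liver, was at 961, 998 and 958 CPM in H10 and 1420.4, 1455 and 1250.3 CPM in M10, with the groups apart (log2 0.50 ± 0.0698, edgeR adjusted p = 1.46e-05). Slc51a, a subunit of the basolateral exporter, rose by 0.26 (edgeR adjusted p = 1.39e-05), while its partner Slc51b had a log2 difference of 0.11 (95% interval 0.01 to 0.21, edgeR adjusted p = 0.0784). Under the set term neither Fgf15 (edgeR adjusted p = 0.0586) nor Slc51a (0.369) passed, while Slc51b passed in 5 other alternatives, among them RLE scaling. Fabp6, the cytosolic bile acid binding protein, was at 6899, 7502 and 7605 CPM against 7348, 7632 and 6969.6 CPM, overlapping groups with a log2 difference of -0.00 (95% interval -0.22 to 0.22). Nr0b2, the corepressor SHP, was at 11.6, 13.2 and 10.1 CPM against 12.3, 17.3 and 14.5 CPM (log2 0.34, edgeR adjusted p = 0.261), and Nr1h4, FXR itself, had a log2 difference of 0.10 (edgeR adjusted p = 0.135). Both pools stood far above vehicle in FXR targets: Fabp6 was at 56.7 CPM in vehicle and Fgf15 at 16.8 CPM.

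Slc10a2, the apical sodium-dependent transporter that takes bile acids up, differed most in this group. It was at 67.5, 75.6 and 66.8 CPM in H10 and 145, 161 and 117 CPM in M10, and vehicle was at 61.5 CPM. The groups were apart, with a log2 difference of 1.02 ± 0.135 (2.02-fold, edgeR adjusted p = 3.05e-05), and of 1.01 with the library set term (edgeR adjusted p = 0.0223). Slc30a10, a manganese exporter, was at 132, 113 and 123 CPM against 161, 151 and 129.9 CPM (log2 0.26, edgeR adjusted p = 0.0816), a value that passed in 7 alternative fits, among them DESeq2 (adjusted p = 0.0305). Over the whole list of bile acid transport and FXR signalling, 6 of 19 were higher and 2 lower, against 18.2% and 18.1% of all tested genes, and the set term left 3 higher and 1 lower. The exporters Abcc2 and Abcg5 were among the 6, each with a log2 difference of 0.40.

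**Figure D4:**
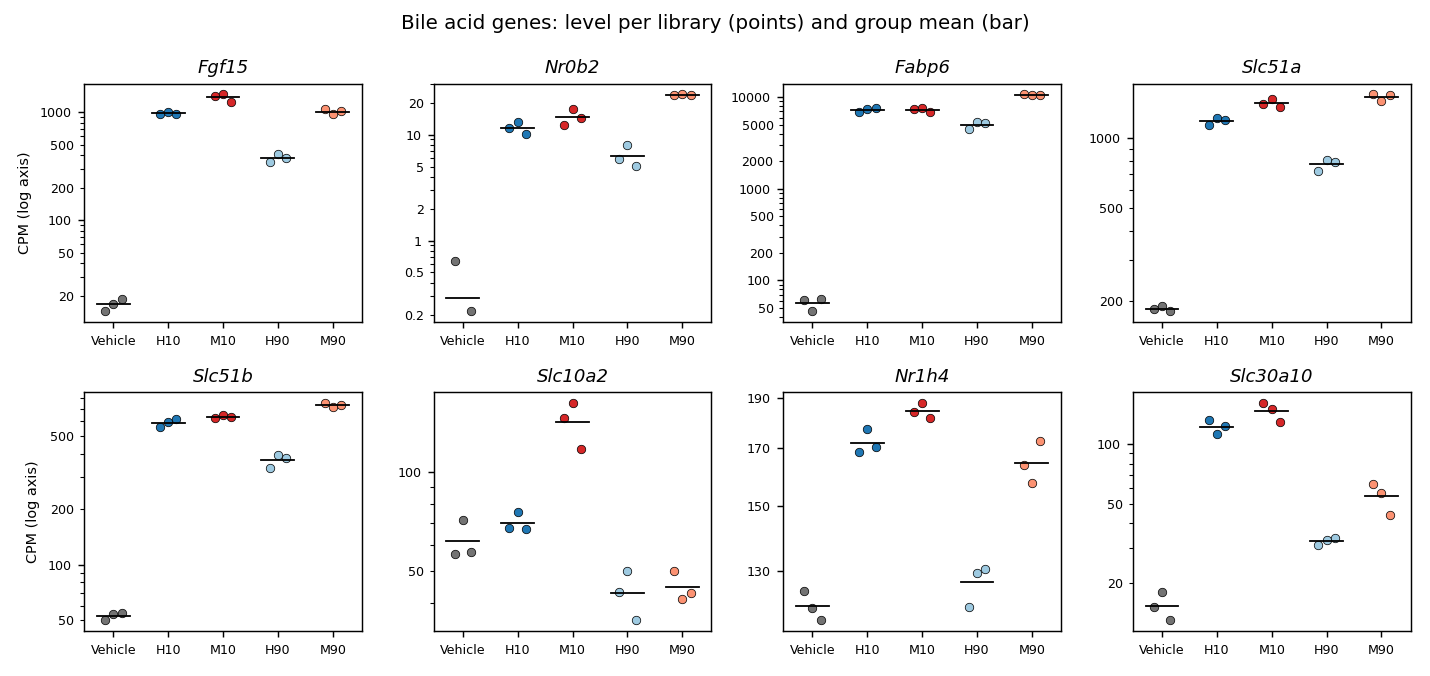
Points give the TMM-scaled CPM of 8 bile acid genes in each library on a log axis, by group, and bars give the mean of 3 libraries. H10 and M10 lie close together in Fabp6 and Slc51b, and apart in Slc10a2, whereas H90 lies below M90 in Fgf15, Nr0b2, Fabp6, Slc51a and Slc51b; 1 vehicle library with no count of Nr0b2 cannot be drawn on the log axis.

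Other receptor targets were mixed. Cyp24a1, the vitamin D hydroxylase, was at 223, 186 and 189.6 CPM in H10 and 499, 468 and 512 CPM in M10 (log2 1.31, edgeR adjusted p = 6.29e-16), while the 90% pools were at 0.651 and 0.564 CPM. S100g and Atp2b1, of calcium absorption, rose by 0.56 and 0.62 and Cldn2, a pore-forming claudin, fell by 0.30. The set term left Cyp24a1 (edgeR adjusted p = 0.637) and S100g (0.311) short of the threshold. For Cyp24a1 that fit cannot decide, since the term comes from H90 libraries, where this gene was under 1 CPM. Its SE was 0.585 with the term and 0.0692 without it. Of 10 vitamin D list members 4 were higher and 1 lower without the term and 1 and 1 with it. Among 25 genes of PXR, CAR and drug metabolism, 10 were higher and 7 lower, an order that turned to 8 and 9 with upper-quartile scaling, to 7 and 9 with library size only and to 6 and 8 with the set term. Cyp3a13 was at 814, 799 and 821 CPM against 1964, 1945 and 1932 CPM (log2 1.26), Cyp4b1 rose by 1.37 and Por, the electron donor of these enzymes, by 0.54. Ces1f, a carboxylesterase, fell by 0.82.

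Further lists divided or moved by small amounts, beside 18.2% higher and 18.1% lower of all tested genes. Autophagy and lysosome genes had 17 of 27 higher and 0 lower, led by Sqstm1 (log2 0.52), Ctsz (0.51), Lamp1 (0.37) and Ctsl (0.64), but 8 higher with library size only and 7 with the set term. Glycolysis and hypoxia genes had 11 of 26 higher and 1 lower, but 7 higher without H10 b, M10 a or M10 b and 3 with the set term. Heat shock proteins had 2 of 19 higher and 8 lower, among them Hspd1 (log2 -0.73) and Hsph1 (-1.04). NRF2 targets had 7 of 29 higher and 10 lower, and 2 and 6 with the set term. Nfe2l2, NRF2 itself, was at 674, 671 and 683 CPM against 461, 440.2 and 454 CPM (log2 -0.58). Ion transport genes had 9 of 17 higher and 3 lower, with the chloride channel Cftr and the potassium channel subunit Kcne3 down by 0.80 and 2.13. Of 38 respiratory chain subunits 5 were higher and 3 lower (21.1% called), and of 29 ATF4 targets 6 and 5 (37.9% called). Of all tested genes 36.3% were called, and both orders turned in some fits. Without any 1 library the respiratory chain had 3 to 5 higher and 0 to 1 lower, and with the set term 1 higher and 2 lower.

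The same comparison at the 90% share, which shares no library with M10 minus H10, gave 5102 calls (38.8% of tested genes, 19.2% higher and 19.5% lower), of which 859 were at least 2-fold (6.53%, 2.04% higher and 4.49% lower). Of the 2394 genes higher in M10, 1403 were also higher in M90 than in H90 (58.6% of the first list and 55.4% of the second), and of the 2385 lower, 1396 were also lower (58.5% and 54.3%). In the opposite direction stood 79 and 99 genes. Without H90 a, so that M90 and H90 lay in 1 library set, 1291 of the higher genes (53.9% and 56.6%) and 1265 of the lower (53% and 56.3%) were shared. Of 129 genes named by the rule or in the text that passed in M10 minus H10, 102 passed in that fit in the same direction, 24 did not pass and 3 passed in the opposite direction: Smoc2 (log2 -0.54, edgeR adjusted p = 4.34e-05), Ces1f (0.55, 7.54e-07) and Nfe2l2 (0.12, 0.0264). Slc10a2 (0.05, edgeR adjusted p = 0.869), Fkbp5 (0.20, 0.311) and Psca (0.17, 0.611) were among those that did not pass. Bub1, Aurka, Top2a, Apoa4, Clu, Zg16, Pigr and Reg3g were among the 102, with log2 differences of -1.96, -1.68, -1.99, 1.25, 1.90, 2.01, -0.74 and -0.70.

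M10 minus H10 differed from M90 minus H90 for 1943 genes (14.8%, edgeR interaction, adjusted p under 0.05). The difference at 10% was more positive for 910 (6.92%) and more negative for 1033 (7.85%). At least 2-fold apart were 282 (2.14%, 0.927% positive and 1.22% negative). M10 and H10 lie in different library sets by Mup20, whereas M90 and H90 differ in set only through H90 a. Share and library set therefore cannot be told apart in the interaction. It passed for 1442 genes with the library set term and for 1746 without H90 a. Fkbp5 and Psca had log2 differences of 3.49 and 3.11 at 10% but 0.17 and 0.31 at 90%, where neither passed. Mitotic genes fell more at 10%: of the 40 cell cycle genes the interaction passed for 22 as more negative and for 1 as more positive. DNA replication genes went the other way: of 50 the interaction passed for 11 as more positive and for 1 as more negative, with a median log2 difference of -1.17 at 10% and -1.62 at 90%. FXR targets also differed less at 10% than at 90%, with Fabp6 at -0.00 and 1.08, Fgf15 at 0.50 and 1.42 and Nr0b2 at 0.34 and 1.89. Olfm4, a stem cell marker, was at 0.700, 0.260 and 0.431 CPM in H10 and 0.0766, 0.128 and 0.560 CPM in M10, overlapping groups that did not differ past the threshold (edgeR adjusted p = 0.186; past it without M10 c), whereas H90 was at 19.9 and M90 at 0.556 CPM.

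**Figure D5:**
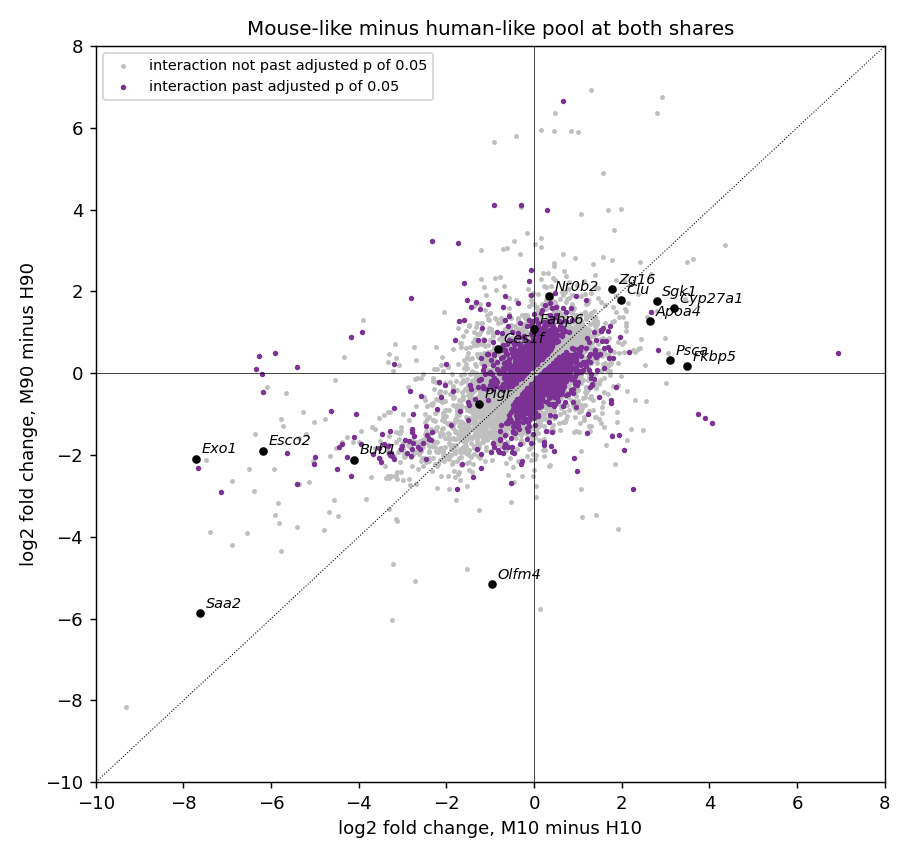
Each point is a tested gene, with the log2 fold change M10 minus H10 on the x axis and M90 minus H90 on the y axis, purple where the 2 differ past an adjusted p of 0.05. Fkbp5 and Psca lie far to the right near the level of 0 on the y axis, and Olfm4 lies low on the y axis near the middle of the x axis; fitted values of genes with 0 counts in M10, such as Exo1, are no measured folds.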

How the data were processed

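The authors sequenced poly-A RNA of 15 libraries (TruSeq, RNA integrity number above 8, per the labels). The submitters' processing notes name bcl2fastq 2.17, STAR 2.5.2b, featureCounts 1.5.0-p3 and mm10 (GRCm38); the annotation, the strand setting and the handling of reads with several matches are not given in the sources used here. The deposited values are raw counts for 23420 gene symbols per library. Since strand use is unknown, reads of antisense partners may be mixed.

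Low genes were removed with filterByExpr, which left 13159, and TMM set the library scale. The test was edgeR's robust quasi-likelihood F test, two-sided, with a mean for each of the 5 groups over all 15 libraries (10 residual degrees of freedom, biological coefficient of variation 0.0881). A call means p under 0.05 after Benjamini-Hochberg adjustment across the 13159 genes, and SE and 95% limits follow from the same F. CPM are TMM-scaled, except for Mup20, Col1a1, Alb and Rn45s by library and the marker sums. Libraries of 1 group differed beyond counting noise (chi-square per gene at least 4.33). A gene with 0 counts was given a bound from a floor of 3 counts per library.

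The comparison and the 50 gene lists were chosen with earlier results of these data known. Genes are named by rule: 8 bile acid genes; the 12 largest called changes each way with separate ranges and at least 2 CPM on average over both groups, leaving out liver, mesenchymal and predicted genes; for each list described up to 4 members ranked by adjusted p, and central members that did not pass; the 5 largest interactions each way; and Mup20, Col1a1, Alb and Rn45s. Same-letter libraries of H10 and M10 had residual correlations of 6.32e-05, 0.0317 and 0.0149, so letters were not treated as pairs. The scripts were tested on simulated data. Alternatives were other scalings, filters and tools (DESeq2, limma-voom), a block for letters, a term for library set and each library left out in turn; a filter at 50 counts on the mean, a fit outside H90, and M90 minus H90 without H90 a were added after seeing the data. Software was edgeR 4.0.16, limma 3.58.1 and DESeq2 1.42.0 under R 4.3.3; figures used matplotlib 3.10.9 under python 3.11.15. A few genes are not reported here by name.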

Additional observations from a re-analysis of the deposited data

Results flagged for a closer look

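For 30 of the named genes the difference M10 minus H10 differed from the difference M90 minus H90 by the edgeR interaction test (adjusted p under 0.05 over all tested genes). Values below are the first difference minus the second, on the log2 scale.

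Bile acid genes had a smaller difference at the 10% share for Fabp6 (-1.08), Fgf15 (-0.92), Nr0b2 (-1.55), Slc51a (-0.71), Slc51b (-0.89) and Nr1h4 (-0.28), and a larger one for Slc10a2 (0.97).

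Among the largest increases the difference was larger at the 10% share for Fkbp5 (3.32), Psca (2.79), Clca6 (1.65), Cyp27a1 (1.60), Apoa4 (1.37), Apoc2 (1.17) and Sgk1 (1.04).

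Among genes of mitosis and of chromosome repair the decrease was larger at the 10% share for Nuf2 (-2.22), Pbk (-1.66), Bub1 (-2.00), Ndc80 (-2.23), Cenpf (-1.72), Ccnf (-1.31), Aurka (-1.69), Kif2c (-1.56), Exo1 (-5.62), Esco2 (-4.28), Cenpm (-3.71), Rad51ap1 (-3.69) and Rad54l (-2.81), of which Exo1 had 0 counts in M10 and Esco2, Rad51ap1 and Rad54l at most 3, so that their values depend on the fit.

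For Olfm4 (4.20) H90 and M90 lay far apart while H10 and M10 overlapped. Rmrp (3.31) and Rpph1 (2.24), RNAs of the RNase MRP and RNase P complexes, were higher in M10 than in H10. Their M90 minus H90 differences were -1.54 and -1.004, and without H90 a they were -0.78 and -0.37 (edgeR adjusted p = 0.267 and 0.436). Rmrp was at 0.485, 0.728 and 0.549 CPM in H10 and 1.61, 2.52 and 1.93 CPM in M10. The difference of Rpph1 between M10 and H10 did not pass without H10 a, H10 b, M10 b or M10 c.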

How the results depend on the processing

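The 4779 calls of M10 minus H10 became 2025 with the library set term and 756 at 2-fold or more. M90 minus H90 gave 859 calls and the interaction 282 at 2-fold or more. Leaving out each library of H10 or M10 gave 3957 to 4619 calls of M10 minus H10. A replicate block for the letters gave 4827 calls, and H10 b was the only H10 library that correlated best with its own letter in M10. DESeq2 gave 4978, limma-voom 4928 and the filter of 50 counts 4688 calls, and all 4566 original calls tested under that filter passed again.

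Direction turned for log2 differences near 0. Fabp6 turned to 0.00907 with RLE scaling and 0.00907 with DESeq2, and ranged from -0.0474 to 0.0288 leaving out each library. Rn45s turned to -0.0335 with upper-quartile scaling and -0.0958 with library size only, and ranged from -0.0045 to 0.0956 leaving out each library. Ascl2 ranged from -0.654 to 0.0406. Gcg turned to -0.0149 with upper-quartile scaling and -0.0773 with library size only, and the latter turned Slc51b to -0.0249 and Nr1h4 to -0.0336. The library set term turned Slc51b (-0.0909), Nr1h4 (-0.0137), Gcg (-0.0153), Dclk1 (-0.129), Fosb (-5.22), Mup20 (0.412) and Col1a1 (-3.29). Under the same term 20 of 129 called genes, named by the rule or in the text, lost their call, among them Fosb, Mup20 and Col1a1. The cause was not tested.

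Members higher fell below members lower for drug metabolism (8, 7 and 6 higher with upper-quartile scaling, library size only and the set term), phase II conjugation (8 and 4 with the latter pair), respiratory chain (2, 1 and 1), ATF4 targets (5, 4 and 0, with 5 under the block and 5 without H10 b or M10 a) and ceramide (4 and 1 with library size only and the set term). The set term rests on 3 H90 libraries, with H90 a alone on the side of H10, so it also carries what was particular to H90 a. Genes under about 1 CPM rest on few counts.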
